A study of Mus musculus with 3 samples.

Results

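Among the c-FOS peaks of ASZ001 cells, a small set was much wider than the others. These are the 263 peaks wider than 500 bp, out of 15011 in the list, and they were chosen by their width in the deposited coordinates. Positions are given 1-based on mm9 with both ends included, so a width is the end minus the start plus 1. Width is therefore a description here, and the positions, neighbours and local density of these peaks are what was compared with the remaining 14748. ASZ001 is an established mouse basal cell carcinoma line. The series followed its induced change towards squamous cell carcinoma and holds 3 samples, collected 6 days into it: 2 were precipitated with an antibody to c-FOS, and 1 is input chromatin without antibody. Cells of all 3 samples had the genotype RasV12_TGFbR1kd, an activated Ras with knockdown of the TGF-beta receptor TGFbR1, and all had been treated with Dox and 4OHT. An uninduced or unmodified arm was not analysed here, whether the cells were 1 clone is not stated, and the identity of the cells cannot be checked from peak positions.

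c-FOS is a leucine zipper protein that pairs with JUN proteins to form the transcription factor AP-1. AP-1 binds short recognition sites, many of them in enhancers, and is a main nuclear output of growth factor and Ras signalling in keratinocytes and their tumours. A peak in a ChIP-seq list is the stretch over which antibody-enriched reads exceed the background. In general its length depends on how many bound sites lie side by side, on the strength of the signal and on the settings of the peak caller. None of these could be set against the widths here, since the list gives positions alone.

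The wide peaks formed 1.75% of the list (Wilson 95% interval 1.55 to 1.97%), and they covered 0.166 Mb or 5.86% of the sequence under all peaks. Their median width was 579 bp, with quartiles of 529 and 665.5 bp, against a median of 157 bp and quartiles of 118 and 220 bp in the rest of the list. Most of the wide peaks were only just so. Between 501 and 600 bp lay 153 of the 263 (58.2%), between 601 and 750 bp lay 79 (30.0%), and 31 (11.8%) were wider than 750 bp. Widths fell off without a step at the threshold. The members nearest to it measured 501 bp, at chr16:4419598-4420098 and chr2:167395567-167396067, and 502 bp, at chr4:46662921-46663422, chr9:34946864-34947365 and chr16:78377053-78377554. Just outside it, peaks of 500 bp lay at chr19:45089397-45089896, chr2:26819771-26820270, chr3:96483164-96483663, chr5:113582125-113582624 and chr8:73223538-73224037.

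**Figure D1:**
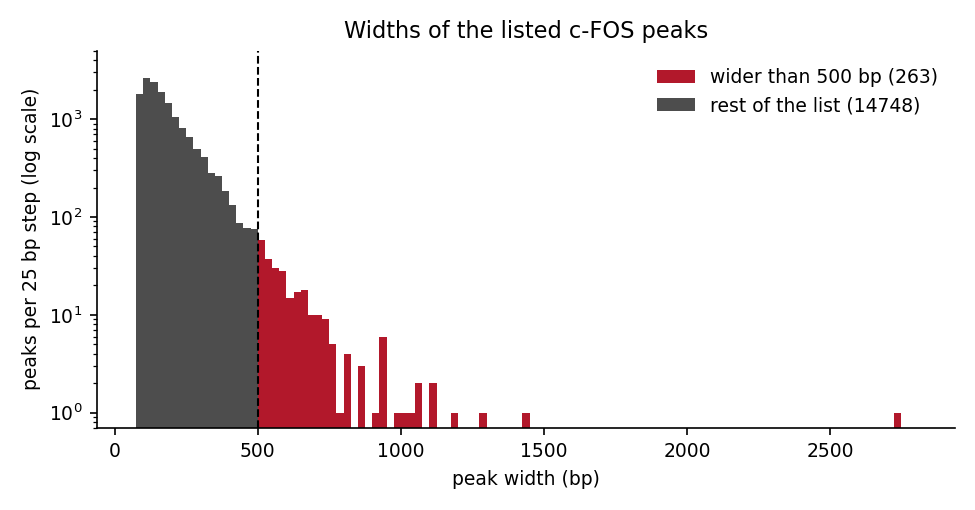
Number of peaks (vertical axis, log scale) in each 25 bp step of peak width (horizontal axis, bp). Red bars are the 263 peaks wider than 500 bp and grey bars the rest of the list, and the dashed line marks the threshold. The counts decline smoothly through 500 bp, and a single peak of 2729 bp stands apart on the right.

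The widest peak of all, chr17:39980590-39983318, measured 2729 bp and was 1.90 times as wide as the second. It lies in a locus of chromosome 17 known as a copy of a ribosomal RNA gene, which the list itself does not annotate. Ribosomal RNA genes are repeated many times in the mouse genome, so reads from many copies can align to 1 assembled copy. How such reads were treated is not stated, and their part in these widths was not tested, so the locus is given apart. It held 6 peaks from 39979967 to 39985754, and 4 of them were wide: chr17:39979967-39980481 (515 bp), the 2729 bp peak, chr17:39984428-39984990 (563 bp) and chr17:39985088-39985754 (667 bp). The other peaks there measured 312 and 335 bp. Gaps between the 6 peaks ran from 97 to 238 bp, and together they covered 88.5% of the 5788 bp they spanned. Outside it the nearest listed peaks lay 2.88 Mb before and 1.04 Mb after, so the locus was a dense block in an otherwise empty stretch. The remaining 259 wide peaks lay elsewhere, and which of those are repeat-derived was not tested.

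The 20 widest peaks were of different kinds in their surroundings. Ranks 1 to 10 measured 1011 to 2729 bp, and rank 1 is the 2729 bp peak of the ribosomal RNA copy. Edge to edge, 8 of these 10 had another peak within 1 kb, at gaps of 98 to 506 bp. Between centres the nearest other peak of these 8 lay 778.5 to 1618.5 bp away, so not all were within 1 kb. The other two had one within 10 kb. Ranks 11 to 20 measured 855 to 980 bp, and 7 of these 10 stood alone, with the nearest other peak 22.6 to 109 kb away. These groups are 10 peaks each, ranked by the width that chose them, so the contrast is a description. Of all listed peaks, 24.9% had another within 1 kb and 48.7% within 10 kb, edge to edge.

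On chromosome 5, the peak at chr5:143578204-143579641 (1438 bp) had 11 other peaks within 10 kb of its centre. That at chr5:115939245-115940532 (1288 bp) had a neighbour 146 bp away and 13 others within 50 kb, and that at chr5:113566962-113568141 (1180 bp) had one 104 bp away and 10 others within 50 kb. The peak at chr5:32437267-32438334 (1068 bp) was the first of a chain of 4, and chr5:125869462-125870472 (1011 bp) had its nearest neighbour 2.91 kb away. All 5 lay in company.

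Crowding of the same order surrounded chr15:85501674-85502794 (1121 bp), which had 16 other peaks within 50 kb, and chr11:100116343-100117398 (1056 bp), which had 15. The peak at chr6:47403735-47404849 (1115 bp) was different. It had a single other peak within 50 kb, 125 bp to its right, and none for 3769815 bp to its left. The peak at chr3:96132008-96133044 (1037 bp) had 2 others within 50 kb, and chr17:84585376-84586355 (980 bp) had 4.

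Between 855 and 945 bp, crowded and solitary peaks stood side by side. On chromosome 19, chr19:5800435-5801377 (943 bp) and chr19:5794552-5795482 (931 bp) had 32 and 29 other peaks within 50 kb, the highest counts of any wide peak. By contrast chr6:143115531-143116475 (945 bp), chr6:38303798-38304735 (938 bp), chr16:49855253-49856187 (935 bp) and chr11:89048064-89048994 (931 bp) had none. The peaks chr17:13108836-13109745 (910 bp) and chr1:193006706-193007569 (864 bp) had 1 each, and chr15:72920560-72921414 (855 bp) had 2. A large width was thus found at solitary sites as well as in dense blocks.

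**Figure D2:**
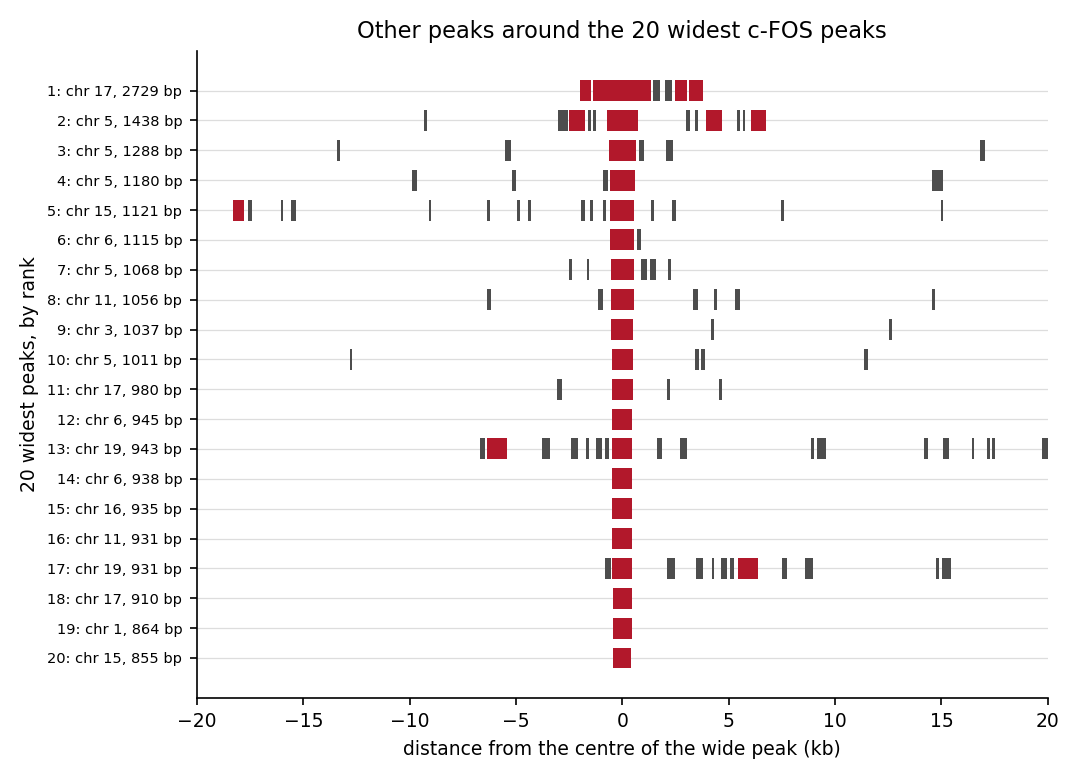
Listed peaks within 20 kb on either side of each of the 20 widest peaks, 1 row per peak in order of width, against distance from its centre (kb). Red blocks are peaks wider than 500 bp and grey blocks narrower ones, drawn to scale. Most of the top 10 rows carry several grey blocks close to the red one, while rows 12, 14 to 16 and 18 to 20 carry the wide peak alone.

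Wide peaks lay on 18 of 21 chromosomes. Chromosome 11 held 34, and chromosomes 5 and 6 held 33 each. These 3, picked for having the most, carried 38.0% of the wide peaks (Wilson 95% interval 32.4 to 44.0%), against 30.3% of the whole list. The number followed the number of listed peaks in the main. On chromosome 11 the wide share was 1.85% of its peaks (1.33 to 2.58%) and on chromosome 5 it was 2.02% (1.45 to 2.83%), both close to the 1.75% of the list. On chromosome 8, with 22 wide peaks among 1405, it was 1.57% (1.04 to 2.36%).

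Chromosome 6 was the exception on the high side. It had 33 wide peaks of 1091, or 3.02% (2.16 to 4.22%), where the share of the list would give 19.1, and it was the only chromosome whose interval lay wholly above 1.75%. Chromosomes 17 and 19 followed at 2.64% (1.71 to 4.04%) and 2.59% (1.70 to 3.93%). Without the ribosomal RNA copy, chromosome 17 had 16 of 752 peaks, or 2.13%.

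At the low end, chromosome 1 had 4 wide peaks of 733, or 0.546% (0.212 to 1.39%), where the share of the list would give 12.8. Chromosome 10 had 1 of 374, or 0.267% (0.0472 to 1.50%). Only these 2 intervals lay wholly below 1.75%, and with 21 chromosomes compared, intervals on either side are not a test. The single wide peak of chromosome 10 was chr10:96079330-96079834 (505 bp), and that of chromosome 12 was chr12:110776406-110776914 (509 bp). Chromosome 9 held chr9:34946864-34947365 (502 bp) and chr9:22083151-22083654 (504 bp). Chromosome 18 held chr18:56867411-56868089 (679 bp) and chr18:36007632-36008150 (519 bp). None was found among the 109 peaks of chromosome 14, which allows a share of up to 2.75%, nor among the 34 of chromosome X, which allows up to 8.82%, nor among the 3 of chromosome Y, which are too few to set a limit. A share below that of the list was not detectable on these chromosomes.

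**Figure D3:**
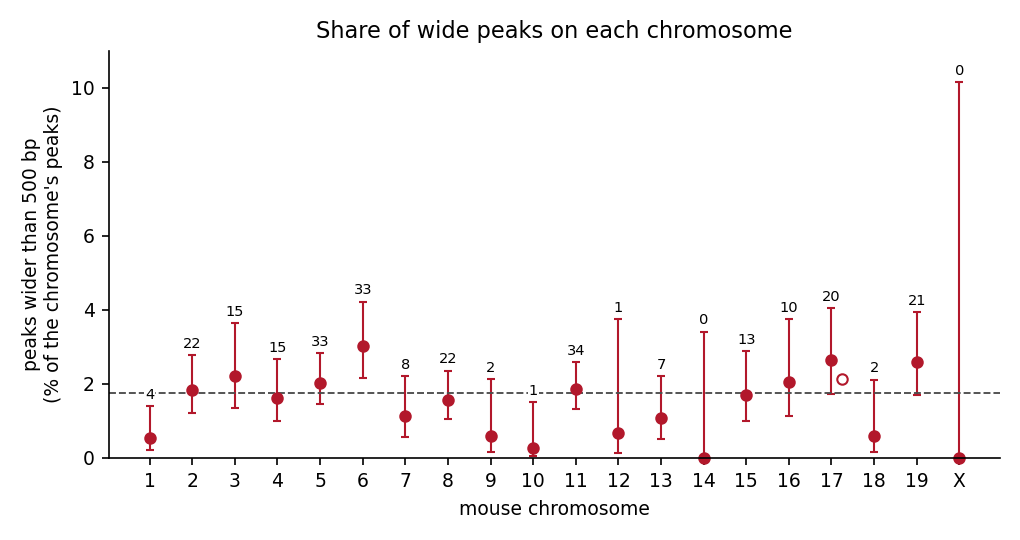
Share of each chromosome's listed peaks that were wider than 500 bp (vertical axis, %), for chromosomes 1 to 19 and X, with Wilson 95% intervals and the number of wide peaks above each. The dashed line is the 1.75% of the whole list, and the open circle is chromosome 17 without the ribosomal RNA copy (2.13%). Chromosome 6 lies above the line and chromosomes 1 and 10 below it, while the other intervals reach across it.

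Wide peaks had another peak close by somewhat more often than the rest of the list. A neighbour within 1 kb, edge to edge, was found for 86 of 263 wide peaks, or 32.7% (27.3 to 38.6%), against 24.7% of the rest (24.0 to 25.4%) and 24.9% of all peaks. The 4 wide peaks of the ribosomal RNA copy are included. Without them the share was 82 of 259, or 31.7% (26.3 to 37.6%). A wide peak reaches further towards its neighbours, and with distances taken between centres the shares were 28.1% (23.0 to 33.9%) in wide peaks and 23.2% (22.5 to 23.9%) in the rest, so that the intervals then overlapped. Within 10 kb, 54.4% of wide peaks (48.3 to 60.3%) had a neighbour, against 48.6% of the rest (47.8 to 49.4%) and 48.7% of all peaks. Within 100 kb the shares were 93.9% of wide peaks (90.3 to 96.2%), 88.0% of the rest (87.4 to 88.5%) and 88.1% of all peaks.

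The median distance to the nearest other peak was 6.25 kb for wide peaks (binomial 95% interval 4.08 to 11.2 kb) and 10.7 kb for the rest (10.3 to 11.2 kb), a ratio of 0.584 with overlapping intervals. Between centres it was 6.68 kb in wide peaks and 10.9 kb in the rest. Without the ribosomal RNA copy, the median edge to edge was 6.61 kb in wide peaks. The nearest other peak was itself of ordinary width, with a median of 165 bp beside wide peaks and 159 bp beside the rest. Another wide peak was the nearest neighbour of 3 of the 263 wide peaks, or 1.14% (0.389 to 3.30%). That interval includes the 1.77% found in the rest. All 3 lie in the ribosomal RNA copy. Apart from it, none of the 259 wide peaks had another wide peak as its nearest neighbour, with a Wilson upper limit of 1.46%.

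The pooled shift was uneven over chromosomes. Among the 11 chromosomes with at least 10 wide peaks, the share with a neighbour within 1 kb was higher in wide peaks on 9, but the share within 10 kb was higher on 5 and the median edge distance shorter on 6. Between centres, the median distance was shorter in wide peaks on 5 of the 11 and longer on 6. Chromosome 5 stood out, with a neighbour within 1 kb for 16 of 33 wide peaks, or 48.5% (32.5 to 64.8%), against 26.0% of its other peaks. Among these 16 are all 5 wide peaks of 1 group, from 143576432 to 143667857, so the share leans on a single place. Chromosome 17 had such a neighbour for 8 of 20 wide peaks, against 24.0% of its other peaks, and 4 of these 8 belong to the ribosomal RNA copy. On chromosome 11 the shares were 29.4% in wide peaks and 29.3% in the rest. On chromosome 16 the 10 wide peaks lay farther from their neighbours, at a median of 42.3 kb against 16.9 kb in the rest. Without chromosome 5 the share within 1 kb was 30.4% in wide peaks and 24.6% in the rest.

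**Figure D4:**
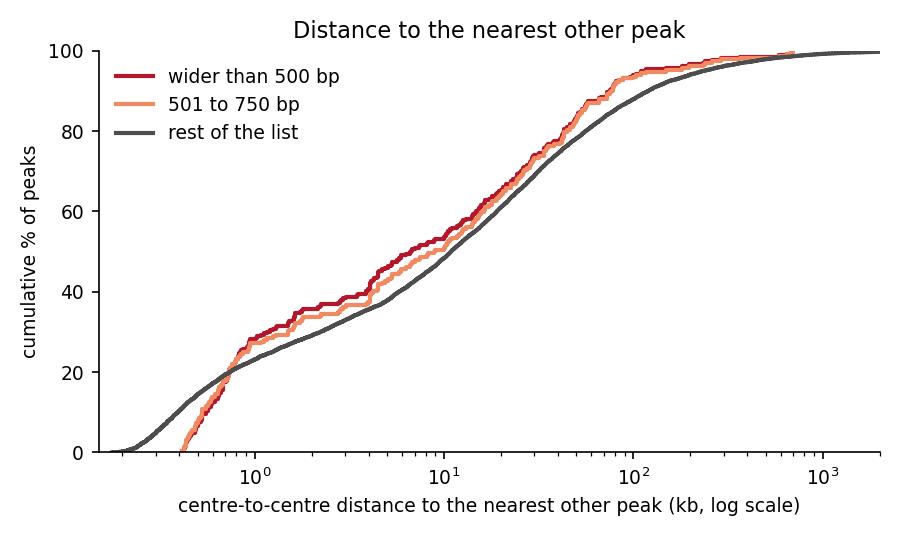
Cumulative share of peaks (vertical axis, %) by centre-to-centre distance to the nearest other peak (horizontal axis, kb, log scale), for the 263 wide peaks (red), for those of 501 to 750 bp (orange) and for the rest of the list (grey). The red line starts at 0.414 kb, since a wide peak's own extent keeps other centres at a distance, and then runs above the grey one from about 1 kb to 100 kb. The orange line runs nearer to the grey one.

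Chains, in which each gap to the next peak is at most 1 kb, show where the close neighbours lay. In chains of 3 or more were 30 wide peaks, or 11.4% (8.11 to 15.8%), against 6.64% of the rest (6.25 to 7.05%) and 6.72% of all peaks. Of these 30, 4 lie in the ribosomal RNA copy. Without it the share was 26 of 259, or 10.04% (6.94 to 14.3%), and the interval then overlapped that of the rest. A further 56 wide peaks were in pairs and 177 stood single. Seen from the chains, 24 of 292 chains of 3 or more held a wide peak (8.22%), as did 56 of 1361 pairs (4.11%), while 1.57% of single peaks were wide. A longer chain has more peaks that can be wide, which alone raises its share. The longest with a wide peak had 10 peaks, at chr8:86721266-86727770, where the wide one measured 562 bp. Next came 9 peaks at chr19:46574133-46578943, with a wide one of 653 bp. Apart from the ribosomal RNA copy, chains with more than 1 wide peak were few. Chains at chr5:143575880-143579641, chr5:143581903-143585659 and chr13:31898167-31900638 held 2 each.

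Local density gave a similar picture. Wide peaks had a mean of 4.07 other peaks within 50 kb of their centre (SD 4.80, n = 263) and a median of 3, against a mean of 3.14 (SD 3.72, n = 14748) and a median of 2 in the rest. At least 5 others were found around 88 wide peaks, or 33.5% (28.0 to 39.4%), against 23.7% of the rest (23.0 to 24.4%) and 23.9% of all peaks. Without the ribosomal RNA copy this share was 84 of 259 wide peaks, or 32.4% (27.0 to 38.4%), and the mean was 4.06. No other peak lay within 50 kb of 44 wide peaks (16.7%) and of 21.8% of the rest. The means were higher in wide peaks on 10 of the 11 chromosomes with at least 10, with chromosome 16 the exception (0.800 in wide peaks and 1.96 in the rest). The medians were less uniform: that of wide peaks was higher on 6 of the 11, equal on 3 and lower on 2.

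The excess varied with distance from the centre. Within 1 kb of it, wide peaks had 179 other peaks per Mb and the rest 139.9, a ratio of 1.28. A peak's own extent keeps other centres away, up to at least 0.414 kb in wide peaks and 0.175 kb in the rest. That stretch was not taken out, which lowers this first ratio, so the rise beyond it is in part built in. The ribosomal RNA copy is included. The ratio was 1.66 between 1 and 2 kb. From 2 to 5 kb, wide peaks had 72.9 other peaks per Mb and the rest 38.8, a ratio of 1.88, and from 5 to 10 kb the ratio was 1.57. Between 10 and 20 kb the values were 32.1 and 29.8 per Mb, a ratio of 1.08, and between 200 and 500 kb they were 19.9 and 18.0 per Mb, a ratio of 1.11. The ratio did not decline evenly, since it was 1.21 between 20 and 50 kb, 1.42 between 50 and 100 kb and 1.16 between 100 and 200 kb.

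Close neighbours were more frequent in wider peaks already among those below the threshold, and most frequent in the widest class. Peaks of 98 bp, its minimum width, had another peak within 1 kb in 19.5% of cases and within 10 kb in 43.3%. Peaks of 401 to 500 bp had shares of 33.4% and 54.7%. Among the 232 wide peaks of 501 to 750 bp the shares were 30.2% (24.6 to 36.4%) and 51.7% (45.3 to 58.1%), so the threshold itself marked no step. Among the 31 wider than 750 bp, 16 had another peak within 1 kb (51.6%, interval 34.8 to 68.0%) and 23 within 10 kb (74.2%, 56.8 to 86.3%). These shares are edge to edge, which favours wide peaks. Between centres, 11 of the 31 had another peak within 1 kb (35.5%, 21.1 to 53.1%), against 31.0% at 401 to 500 bp (26.5 to 35.9%), with overlapping intervals. Within 10 kb the share between centres was again 74.2%. The mean number of other peaks within 50 kb was 2.82 at 98 bp, 3.44 at 401 to 500 bp, 3.53 at 501 to 600 bp, 3.78 at 601 to 750 bp and 7.48 above 750 bp (SD 8.15, n = 31). The last value leans on the pair of crowded peaks near the start of chromosome 19 (chr19:5794552-5795482 and chr19:5800435-5801377), and without them it was 5.90 (n = 29).

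Of the 31, 7 lay on chromosome 5 and 4 each on chromosomes 6, 11, 17 and 19. A neighbour within 1 kb, edge to edge, was found for 6 of the 7 on chromosome 5 and for 10 of the 24 elsewhere. Of the 6, those that start at 143576432, 143578204 and 143582857 lie in 1 group. No other peak within 50 kb was listed for 4 of the 31 (12.9%), against 21.7% of all peaks.

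**Figure D5:**
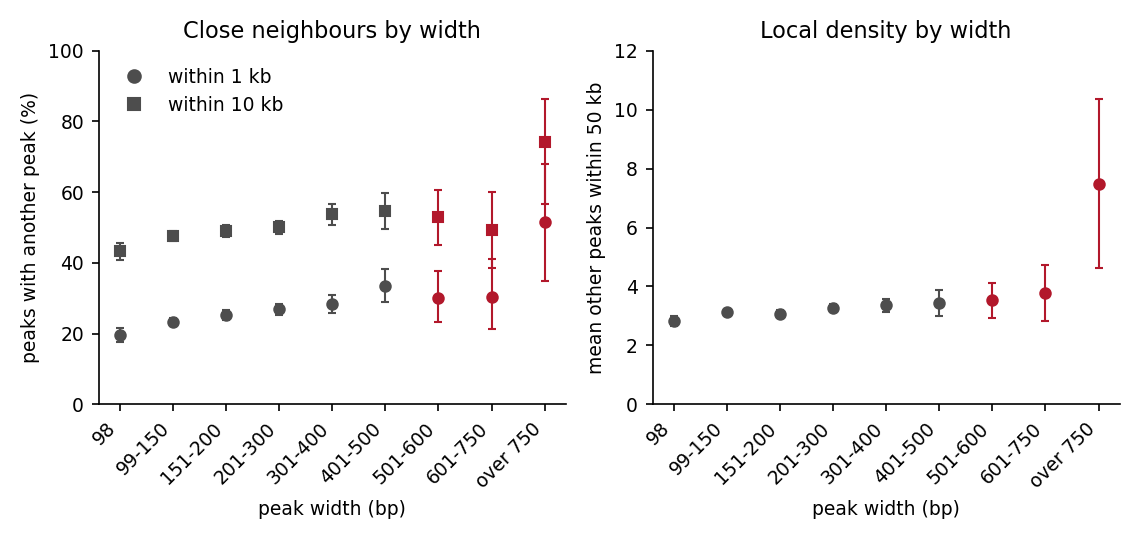
Left, share of peaks with another listed peak within 1 kb (circles) and within 10 kb (squares), edge to edge, by class of peak width (bp), with Wilson 95% intervals. Right, mean number of other peaks within 50 kb of the centre in the same classes, with normal 95% intervals. Red marks the classes above 500 bp. The shares are higher at 401 to 500 bp (33.4% and 54.7%) than at 98 bp, and are no higher from 501 to 750 bp. They are highest over 750 bp, as is the mean. Taken between centres, the share within 1 kb over 750 bp was 35.5% (21.1 to 53.1%).

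The spacing of wide peaks among themselves is given without a baseline, since as many other listed peaks were not drawn for comparison. The median distance from a wide peak to the nearest other wide peak was 0.976 Mb, with quartiles of 0.188 and 3.53 Mb, and 205 windows of 1 Mb held the 263. A single wide peak lay in 166 of these windows, and 12 windows held 3 or more. The most, 6, were found among 94 peaks on chromosome 19 from 5000001 to 6000000, and 5 were found among 36 peaks on chromosome 5 from 143000001 to 144000000. Windows with a wide peak had a median of 15 listed peaks, against 4 in windows with peaks but no wide one. A window with more peaks has more chances to hold a wide one, so this difference is in part built in.

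Linking wide peaks by gaps of at most 100 kb gave 17 pairs and 6 groups of 3 or more, which together held 56 of the 263 (21.3%). The largest was on chromosome 5 and had 5 wide peaks among 14 listed, over 91.4 kb. Of these, 4 lay in close succession, with starts at 143576432 (758 bp), 143578204 (1438 bp), 143582857 (758 bp) and 143584982 (678 bp). The last began at 143667283 and measured 575 bp. The ribosomal RNA copy had 4. Proximal chromosome 19 had 4 among 11 listed peaks over 149 kb, starting at 5488202 (566 bp), 5560421 (718 bp), 5567401 (531 bp) and 5636983 (696 bp).

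Chromosome 6 had groups of 3 at 2 places. The first, from 83004314 to 83087232, held wide peaks of 561, 577 and 505 bp among 9 listed peaks, and the second, from 124662098 to 124779313, held wide peaks of 579, 528 and 553 bp among 12. Near the start of chromosome 11, from 3026972 to 3190311, 3 wide peaks of 687, 596 and 518 bp lay among 34 listed peaks. The first of these, chr11:3026972-3027658, had 28 other peaks within 50 kb. The other members with the most peaks around them were chr8:87509460-87510031 (572 bp) and chr2:179960242-179960793 (552 bp), each with 19.

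At the other extreme were wide peaks far from any other. The nearest other peak was 695 kb away for chr5:152171067-152171686 (620 bp), which was the last listed peak of its chromosome. It was 678 kb away for chr5:8422598-8423154 (557 bp), 644 kb for the only wide peak of chromosome 12, 588 kb for chr3:106350356-106350933 (578 bp) and 366 kb for chr15:63829454-63830013 (560 bp). In all, 16 of the 263 wide peaks had no neighbour within 100 kb, against 1774 of the 14748 others and 1790 of all 15011. Such isolation was thus less frequent in wide peaks, of which 93.9% had a neighbour within 100 kb, against 88.0% of the rest. Genes in or near the wide peaks were not analysed here, for want of gene positions on mm9.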

How the data were processed

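The values used are the start and end of each c-FOS peak in base pairs on mm9, in 1 list as the authors deposited it. Per the submitters' processing notes, reads were aligned with Bowtie2 to mm9 and peaks were called with MACS2. The sources used here do not give versions, the calling threshold, how the input was used, how reads that align to several places were treated, or how the ChIP replicates were pooled. A caller's threshold and its rule for joining nearby signal set a peak's width, so widths are those of this call. Read depth is unknown.

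Width was taken as end minus start in the deposited 0-based coordinates, and printed starts are 1 higher than the deposited ones. Distances to the nearest other peak were measured edge to edge and, as an alternative, centre to centre; the number of other peak centres within 50 kb of each centre gave the local density (Python 3.11.15, numpy 2.4.6, pandas 2.3.3, scipy 1.17.1, matplotlib 3.10.9). These functions were checked on simulated peak lists. Shares carry Wilson 95% intervals and medians binomial ones. Both reflect counting error alone and take peaks to be independent, though peaks cluster. No test was run, since peaks of 1 list are not replicates of a condition. The members, the measures and the lists were chosen with earlier results of these data known. Regions named are the 20 widest, those beside the 500 bp threshold, the 5 most crowded and the 5 most isolated members, groups of 3 or more members linked by gaps of at most 100 kb, and members on chromosomes with 3 or fewer. Gene tables at hand were for GRCm38, so no peak was joined to a gene, and sequence of mm9 was not used here.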

Additional observations from a re-analysis of the deposited data

How the results depend on the processing

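No paired analysis was possible because the list names no replicate, and for the same reason no replicate could be left out and no spread between the ChIP samples can be given. Of 46 alternatives over 6 results, 34 stayed close to the value reported. Close means within its interval or, for the number of wide peaks, within 1.5 times of it. A turn of direction could be recorded only for the ratios of wide peaks to the rest, and none occurred. The intervals for the median distance (0.381 to 1.05) and the share within 10 kb (0.995 to 1.24) include no difference, so staying within them does not set a direction. The number of wide peaks was 634 above 400 bp, 110 above 600 bp, 31 above 750 bp, 10 above 1000 bp and 1490 after merging peaks within 1000 bp, all by construction. Above 750 bp the share on chromosomes 5, 6 and 11 was 48.4%. Edge to edge, the ratio of these peaks to the rest was 0.0720 for the median distance. It was 2.08 for the share within 1 kb and 1.53 for the share within 10 kb, also edge to edge. The ratio was 2.38 for the mean number of other peaks within 50 kb. The last was 1.54 above 600 bp and 1.57 with a radius of 10 kb, against 1.30 as reported. Wide peaks were also set against a rest weighted to their own chromosomes. The ratios were then 0.649 for the median distance, 1.27 within 1 kb, 1.08 within 10 kb and 1.21 for the local number. Leaving out chromosome 5 or peaks wider than 750 bp was chosen after the data were seen, as was leaving out the ribosomal RNA copy for every result other than the median distance. Without peaks wider than 750 bp these ratios were 0.796, 1.22, 1.06 and 1.15. The cause of these shifts was not tested. Depth is unknown, so how far width follows read number was not tested.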

Other observations

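Wide peaks were also counted near the start of the assembled sequence of each chromosome, a count added after the positions of the group on chromosome 11 had been seen. Before position 4 Mb lay 166 listed peaks over all chromosomes, and 7 of them were wide, or 4.22% (Wilson 95% interval 2.06 to 8.45%), against 1.75% of the list. Chromosome 11 contributed 3 of these 7 wide peaks and 61 of the 166 listed ones. The others were chr17:3115162-3115807 (646 bp), chr19:3851579-3852164 (586 bp), chr6:3132946-3133491 (546 bp) and chr8:3672047-3672587 (541 bp). Whether any of these regions is repeated sequence was not tested.

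In the chains of close peaks that held a wide one, the median width of the 139 other peaks was 174 bp, while peaks of chains with no wide one had a median of 165 bp. Wide peaks followed each other directly along a chromosome, with no other listed peak between them, at 4 places. Of these, 2 are in the ribosomal RNA copy, at gaps of 97 and 108 bp. The other two are far apart, with gaps of 55.0 kb on chromosome 6 (chr6:49213484-49214184 and chr6:49269136-49269639) and 226 kb on chromosome 2 (chr2:151931133-151931707 and chr2:152157933-152158443).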
